A study of Arabidopsis thaliana and Arabidopsis thaliana x Arabidopsis arenosa with 9 samples.

Results

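The genes described here are 10 Arabidopsis thaliana loci that make or store flavonoid and tannin pigment in the seed coat, out of 33602 loci in the table of read counts. The rule names them by locus, for their known role, and uses no measured value. In order of the pathway they are CHS (AT5G13930), CHI (AT3G55120), F3H (AT3G51240), TT7 (AT5G07990), DFR (AT5G42800), LDOX (AT4G22880), BAN (AT1G61720), TT19 (AT5G17220), TT12 (AT3G59030) and AHA10 (AT1G17260). In TAIR10.1 coordinates the annotated genes lie on 4 chromosomes, with CHS at chr5:4488476-4490264, CHI at chr3:20430059-20431597, F3H at chr3:19025192-19026872, TT7 at chr5:2560328-2563137, DFR at chr5:17164093-17166032, LDOX at chr4:12004726-12006209, BAN at chr1:22790966-22792803, TT19 at chr5:5658416-5659661, TT12 at chr3:21819040-21821440 and AHA10 at chr1:5904058-5908898. All 10 had reads in every library and all 10 passed the filter on low counts, which 16779 loci passed.

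The libraries were made from mRNA of whole seeds dissected at 3 days after pollination from 2 reciprocal crosses between the accessions Col-0 and C24. In Col-0 X C24 the seed parent was ColA9, a male-sterile Col-0 line hemizygous for a sterility construct, and the pollen came from wild-type C24. In C24 X Col-0 the seed parent was C24A9, the male-sterile C24 line with such a construct, and the pollen came from wild-type Col-0. Each cross gave 2 libraries, each from seeds pooled over many siliques, and the study's methods state that replicate 2 of both crosses was treated with duplex-specific nuclease and amplified again. The crosses ask whether these transcripts differ with the accession of the seed parent, because the seed coat carries that parent's genotype alone.

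Total counts ranged from 3538335 to 6498145 reads per library. Replicate 2 of C24 X Col-0 stood apart, with reads on 29250 loci, against 19828 to 20580 loci in the other 3 libraries. Levels are given in CPM, counts per 1000000 reads (the library total having been scaled by TMM, a factor that centres the bulk of genes between libraries). The factor was lowest, at 0.692, in replicate 1 of C24 X Col-0, so that CPM in that library exceed plain reads per 1000000 (RPM). Markers of the endothelium, the inner seed coat layer where tannins form, were all detected: BAN, TT12, TT10, TT2 and TT16 had counts in each of the 4 libraries.

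Flavonoids are built from a phenylpropanoid precursor that CHS, chalcone synthase, condenses with malonyl-CoA. CHI, F3H and TT7 close and hydroxylate the ring system, DFR and LDOX reduce and oxidise it to anthocyanidins, and BAN, anthocyanidin reductase, turns these into the epicatechin units of condensed tannins. TT19 is a glutathione S-transferase, TT12 a transporter of the vacuole membrane and AHA10 a proton pump, and all of these have roles in bringing the units into the vacuole of endothelial cells. Loss of most of these genes leaves pale seeds, hence the name transparent testa (TT), and in the endothelium TT2, TT8 and TTG1 form a complex of MYB, bHLH and WD40 proteins that activates the late genes.

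Since MYB and bHLH factors act at these genes, promoter windows from 250 bases before to 50 bases after the annotated start were read from the RefSeq TAIR10.1 assembly, whose nuclear chromosomes have the lengths of TAIR10. Those of 4 genes are shown: CHS and DFR, which had the highest levels per kilobase, BAN, the enzyme that makes epicatechin, and TT12, the transporter. Capitals mark every G-box (CACGTG, a site bHLH proteins can bind) and every AC element (ACCNANC, a MYB-type site, on either strand). The windows lie at chr5:4488226-4488525 on the plus strand for CHS, chr5:17165983-17166282 on the minus strand for DFR, chr1:22792754-22793053 on the minus strand for BAN and chr3:21818790-21819089 on the plus strand for TT12, and all are written 5′ to 3′ along the gene.
CHS: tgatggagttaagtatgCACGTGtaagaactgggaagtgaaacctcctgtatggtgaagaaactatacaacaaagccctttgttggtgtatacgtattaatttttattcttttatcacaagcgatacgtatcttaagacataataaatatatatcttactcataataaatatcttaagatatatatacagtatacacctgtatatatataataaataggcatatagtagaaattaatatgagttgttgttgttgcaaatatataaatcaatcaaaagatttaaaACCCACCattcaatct
DFR: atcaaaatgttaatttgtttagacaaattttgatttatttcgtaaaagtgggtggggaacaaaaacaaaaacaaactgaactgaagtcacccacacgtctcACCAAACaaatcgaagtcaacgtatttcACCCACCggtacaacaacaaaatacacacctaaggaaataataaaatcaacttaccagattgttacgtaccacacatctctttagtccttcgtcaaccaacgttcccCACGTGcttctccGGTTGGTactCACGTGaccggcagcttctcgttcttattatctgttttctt
BAN: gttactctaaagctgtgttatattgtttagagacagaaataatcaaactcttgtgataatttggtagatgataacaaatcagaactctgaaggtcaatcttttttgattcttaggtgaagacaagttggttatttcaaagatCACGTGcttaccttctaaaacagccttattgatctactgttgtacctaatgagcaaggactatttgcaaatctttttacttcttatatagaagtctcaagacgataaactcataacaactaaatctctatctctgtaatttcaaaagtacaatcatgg
TT12: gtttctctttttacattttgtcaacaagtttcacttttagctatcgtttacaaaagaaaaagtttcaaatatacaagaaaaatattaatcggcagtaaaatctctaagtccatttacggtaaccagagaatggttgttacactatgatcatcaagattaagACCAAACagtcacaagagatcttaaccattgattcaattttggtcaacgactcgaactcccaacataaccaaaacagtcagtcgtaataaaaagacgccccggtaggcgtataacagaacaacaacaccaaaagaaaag

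Counted from 0 at the annotated first base, the G-box of CHS began at -233 and that of BAN at -108, while DFR had a G-box at -14 and another one at 9. The TT12 window held no G-box and 1 AC element, which began at -89. A G-box was found in 5 of the 10 windows, those of CHS, CHI, F3H, DFR and BAN. That compares with 7.79% of the 26711 windows of annotated nuclear protein-coding loci, called all windows below. An AC element was found in 6 of 10 windows, beside 32.6% of all windows. The E-box CANNTG, which includes the G-box, was found in 8 of 10 windows (61.6% of all windows), CNGTTG in 6 (23.9%) and CNGTTA in 3 (30.3%), each counted on both strands. The G-box was thus the motif whose share among the 10 windows lay farthest, in percentage points, from its share among all windows. These matches are letters in a window and not measured binding sites.

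By reads per locus the 10 genes ranked between 4 (CHS) and 1751 (F3H) among all loci in the single libraries. Together they took 2.37% of all reads in replicate 1 (95% Wilson interval 2.36% to 2.38%) and 1.17% in replicate 2 (1.15% to 1.18%) of Col-0 X C24, against 4.02% (4.01% to 4.04%) and 1.74% (1.73% to 1.75%) in those of C24 X Col-0. The intervals treat reads as independent, which reads of 1 amplified molecule are not. They may therefore be too narrow even for counting error, and they leave out the spread between libraries. CHS alone took 1.10% and 0.166% of all reads in Col-0 X C24 replicates 1 and 2, against 2.21% and 0.616% in C24 X Col-0. Its rank among all loci was 6 and 25 in the Col-0 X C24 libraries, against 4 and 9 in those with C24 as seed parent. CHS made up 46.6% and 14.3% of the reads of the 10 genes in Col-0 X C24, against 54.8% and 35.4% in C24 X Col-0.

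Per kilobase of the longest annotated transcript, the mean over the 4 libraries was 7308 CPM per kb for CHS, 2862 for DFR, 2020 for BAN, 1768 for LDOX, 1065 for TT19, 936 for CHI, 641 for TT7, 284 for TT12, 193 for F3H and 103 for AHA10. The order did not follow the pathway, as F3H, an early step, lay near the bottom and the late enzymes DFR, BAN and LDOX lay near the top. The place of F3H carries a limit, since 82.7% of the 80-base windows of its transcript also occur in AT3G51238. Reads from these windows may not all be in the F3H counts, which was not tested. Among neighbours in this order, DFR exceeded BAN, CHI exceeded TT7 and TT7 exceeded TT12 in 4 of 4 libraries. The other 6 neighbouring pairs kept their order in 3 of 4 libraries, so they did not differ beyond the spread between libraries. CHS held rank 1 in 3 libraries and rank 4 in replicate 2 of Col-0 X C24, at 776 CPM per kb.

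**Figure D1:**
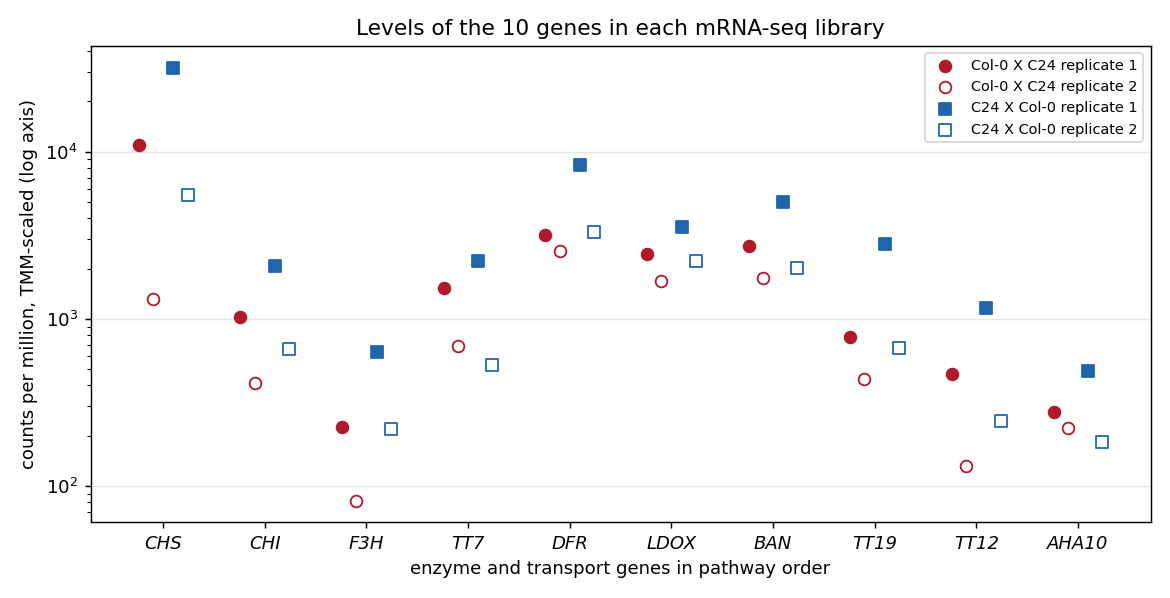
Level of each of the 10 genes in each mRNA-seq library, in CPM on a log axis, with circles for Col-0 X C24, squares for C24 X Col-0, filled symbols for replicate 1 and open symbols for replicate 2. Replicate 1 of C24 X Col-0 was the highest library for all 10 genes, and CHS spanned the widest range, 1322 to 31917 CPM.

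Between the crosses, all 10 genes had lower fitted levels in Col-0 X C24, by log2 fold changes of -0.31 to -1.60 after TMM scaling (with library totals TT7 and AHA10 lay above 0), but none passed the test. In edgeR's quasi-likelihood test without the replicate number, 0 of 10 genes had an adjusted p under 0.05 (adjusted p 0.778 to 0.963), as did 0% of the 16779 genes tested. At an unadjusted p under 0.05 the same test gave 0 of the 10 genes and 1251 of all genes (7.46%). DESeq2 called 0 of the 10 genes (2 at an unadjusted p under 0.05) and 302 of all genes (1.8%). The median log2 fold change of the 10 genes was -0.98, beside -0.01 over all genes tested, of which 51% lay below 0. In bulk seeds, fewer endothelial cells per seed and less of these mRNAs per cell cannot be told apart. The labels separate the 2 samples of a cross by replicate number alone, and the study's methods call them biological replicates. These methods also place the nuclease step on replicate 2 of both crosses. In the test without the replicate number, p-values measure the spread between these libraries, which includes that difference in treatment.

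The summed level was 23670 and 9264 CPM in Col-0 X C24 replicates 1 and 2, against 58227 and 15582 CPM in those of C24 X Col-0. Means were 16467 ± 10187 CPM in Col-0 X C24, against 36905 ± 30155 CPM with C24 as seed parent (SD, n = 2 each), a ratio of 0.446. Without CHS the ratio of the means was 0.566. The groups overlapped in both sums, because the higher Col-0 X C24 library lay above the lower library of C24 X Col-0.

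The early enzymes overlapped between the crosses. CHS had 11019 and 1322 CPM in Col-0 X C24 replicates 1 and 2, against 31917 and 5522 CPM in those of C24 X Col-0. CHS was lower in Col-0 X C24 in both pairs, at 0.345 times the other cross in replicate 1 and 0.239 times in replicate 2. Its 2 libraries per cross differed more from each other than the crosses did, and the fitted log2 fold change of -1.60 had an SE of 1.48. CHI, which closes the heterocyclic ring, had 1021 and 411 CPM in Col-0 X C24, against 2075 and 656 CPM in C24 X Col-0, a log2 fold change of -0.93 (SE 0.86).

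F3H, the hydroxylase that makes dihydroflavonols, had 225 and 81.7 CPM in Col-0 X C24, against 637 and 218 CPM in C24 X Col-0. The groups overlapped narrowly in CPM and not in RPM, where F3H had 226 and 103 in Col-0 X C24, against 440 and 243 in C24 X Col-0, and the ratio within replicate numbers was nearly the same, 0.353 in replicate 1 and 0.375 in replicate 2. F3H counts carry a limit, since 82.7% of the 80-base windows of its transcript also occur in AT3G51238, a locus on the opposite strand that shares 1588 bases with it. That locus had 5 and 0 counts in Col-0 X C24, against 5 and 13 in C24 X Col-0, and the summed counts gave the same log2 fold change of -1.48 as F3H alone. No source used here states that the kit kept strand, so reads of the pair cannot be told apart. TT7, the cytochrome P450 that adds a hydroxyl group to the B ring, had 1524 and 684 CPM in Col-0 X C24, inside the values of 2211 and 529 CPM in C24 X Col-0.

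DFR was the 1 gene of the 10 whose libraries did not overlap between the crosses in CPM, beside 17.2% of all genes tested for which both Col-0 X C24 libraries lay below both of C24 X Col-0, while in RPM it was 2 of 10, DFR and F3H, beside 10% of all genes. DFR, dihydroflavonol reductase, had 3175 and 2538 CPM in Col-0 X C24, against 8368 and 3324 CPM in C24 X Col-0. The highest Col-0 X C24 value and the lowest C24 X Col-0 value lay close together, and the log2 fold change was -1.03 (SE 0.89). LDOX had 2457 and 1689 CPM in Col-0 X C24, against 3545 and 2209 CPM in C24 X Col-0. BAN had 2728 and 1751 CPM in Col-0 X C24, against 5041 and 2025 CPM in C24 X Col-0. Both overlapped between the crosses, with log2 fold changes of -0.47 (SE 0.75) for LDOX and -0.66 (SE 0.85) for BAN. A further locus, AT4G22870, holds 1.67% of the 80-base windows of LDOX and had at most 12 counts in a library.

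Of the genes that move tannin units into the vacuole, TT19 had 775 and 434 CPM in Col-0 X C24, against 2789 and 672 CPM in C24 X Col-0. TT12 had 468 and 132 CPM in Col-0 X C24, against 1157 and 244 CPM in C24 X Col-0. AHA10 had 278 and 223 CPM in Col-0 X C24, against 488 and 183 CPM in C24 X Col-0. The groups overlapped for each, and for AHA10 both Col-0 X C24 values lay inside the C24 X Col-0 values. The log2 fold changes were -1.52 (SE 0.90) for TT19, -1.22 (SE 0.98) for TT12 and -0.42 (SE 0.62) for AHA10.

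With the replicate number as a block, 2 of the 10 genes were called lower in Col-0 X C24, CHS and F3H, and none higher. Of all genes tested, 6.66% were called with the block, 4.42% lower and 2.24% higher, a balance that turned with the block and library totals, where 84 genes were lower and 110 higher. The block is the comparison within replicate numbers, so that libraries alike in the nuclease step, which the methods place on replicate 2, are compared. CHS then had a log2 fold change of -1.80 (SE 0.43, adjusted p = 0.0248 in edgeR) and F3H one of -1.46 (SE 0.31, adjusted p = 0.0134 in edgeR), and each was lower in Col-0 X C24 in both pairs. The next genes missed the threshold, TT12 at -1.10 (adjusted p = 0.0682), TT19 at -1.24 (0.0936), CHI at -0.85 (0.193) and DFR at -0.89 (0.256). BAN at -0.55, LDOX at -0.46, AHA10 at -0.27 and TT7 at -0.08 had adjusted p of 0.493 to 0.940 in the same edgeR fit. The median over the 10 genes was -0.87, beside 0.01 over all genes. This fit and that of the replicate numbers below estimate both terms from 4 libraries, so little spread per gene is left. Their tests lean on dispersion shared across genes.

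Within replicate 1 all 10 genes were lower in Col-0 X C24, beside 48.3% of all genes, and within replicate 2 this held for 8 of 10, beside 51.5%. TT7 and AHA10 were the 2 others, at 1.29 and 1.22 times the C24 X Col-0 level in replicate 2. In both pairs, 8 of 10 genes were lower, beside 32.5% of all genes, and in RPM 7 of 10, beside 18% of all genes. Leaving out replicate 1 of C24 X Col-0 moved the median log2 fold change without the block to 0.13, with 6 of the 10 genes above 0, but this set both replicates of Col-0 X C24 against replicate 2 alone. With replicate 1 of both crosses left out the median was -0.51, with 8 of the 10 genes below 0. Leaving out the library that stood apart, replicate 2 of C24 X Col-0, moved the median to -1.55 with all 10 genes below 0. This in turn set both replicates of Col-0 X C24 against replicate 1 alone. With library totals in place of TMM, which shifted the median of all genes to 0.29, TT7 and AHA10 stood at 0.17 and 0.04, and with the block and library totals 0 of the 10 genes were called in edgeR (4 at an unadjusted p under 0.05).

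**Figure D2:**
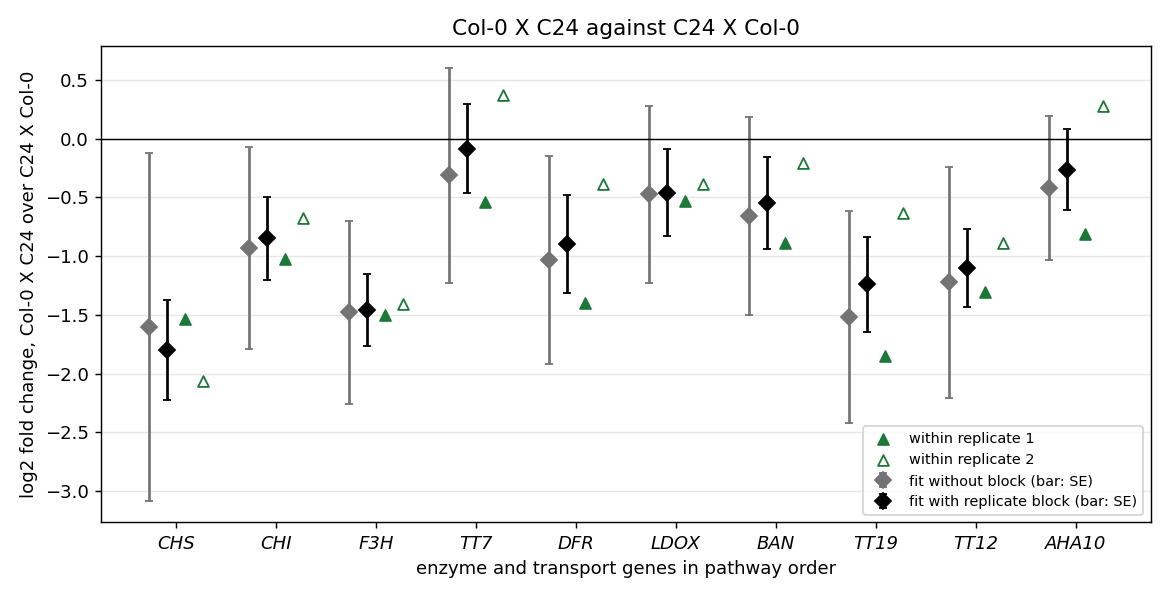
Log2 fold change between the crosses for each gene in pathway order, positive where Col-0 X C24 is higher, from edgeR without the replicate block (grey diamonds) and with it (black diamonds, bars are SE for both), beside the ratios within replicate 1 (filled triangles) and replicate 2 (open triangles). All 10 fitted values lie below 0 in both fits, which use TMM scaling (TT7 and AHA10 lie above 0 with library totals), and the replicate 2 ratios of TT7 (0.37) and AHA10 (0.28) lie above 0.

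Between the replicate numbers the genes had lower levels in replicate 2. In edgeR's test of replicate 2 over replicate 1 with the cross as a term, 6 of the 10 genes were lower in replicate 2, beside 6.68% of all genes called lower, and none of the 10 was higher, beside 3.23% (9.91% in either direction). The median log2 fold change was -1.47, beside 0.07 over all genes. In both crosses, 10 of 10 genes were lower in replicate 2 in CPM, beside 32.8% of all genes, and 7 of 10 in RPM, beside 14.3%, with DFR, LDOX and AHA10 the 3 that were not. For 9 of the 10 both replicate 2 libraries lay below both replicate 1 libraries, beside 22.3% of all genes, and DFR was the exception, while in RPM this held for 6 of 10, beside 9.2%. The nuclease step cannot be told apart from other differences between the replicate numbers, as there is 1 library per cross and number. The study's methods give its aim as more reads from RNA of low to moderate abundance. By reads per locus the 10 genes ranked between 4 and 1751 in the 4 libraries, so most genes tested were less abundant. The shares over all genes are thus not matched in level, and the part of level in these values was not tested.

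CHS fell by 2.79 on the log2 scale (SE 0.44, adjusted p = 0.00187 in edgeR), to 0.120 times its replicate 1 level in Col-0 X C24 and 0.173 times in C24 X Col-0. TT12 fell by 2.04 (SE 0.34, adjusted p = 0.00239), to 0.281 and 0.211 times in these crosses. TT7 changed by -1.61 (adjusted p = 0.0205), F3H by -1.51 (0.00849), CHI by -1.49 (0.0205) and TT19 by -1.45 (0.0409) in the same edgeR fit. The 6 genes spanned the pathway from its entry enzyme to the vacuole, with CHS at rank 1 and the other 5 at ranks 5 to 9 in level per kilobase. DFR, LDOX and BAN, at ranks 2 to 4, had -0.83 (adjusted p = 0.243), -0.61 (0.343) and -0.98 (0.143), and AHA10, at rank 10, had -0.86 (0.144). In single crosses the level in replicate 2 was 0.120 (CHS) to 0.803 (AHA10) times the replicate 1 level for Col-0 X C24, and 0.173 (CHS) to 0.623 (LDOX) times in the other cross, whose replicate 2 stood apart. Among the called genes the crosses were least alike for TT19, at 0.560 times in Col-0 X C24 and 0.241 times in C24 X Col-0, and TT7, at 0.449 and 0.239 times.

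The calls depended on how the libraries were scaled and on the cross term. With library totals, which moved the median of all genes to 0.59, CHS and TT12 alone passed and the other 4 did not, at adjusted p of 0.0912 to 0.126. The balance over all genes turned as well, with 83 called lower and 162 higher, against 1121 lower and 542 higher after TMM scaling. Without the cross term 0 of the 10 genes passed in edgeR (4 at an unadjusted p under 0.05), as did 0 of all genes (1978 at an unadjusted p under 0.05). DESeq2 with the cross term called 7, adding BAN at an adjusted p of 0.0186, beside 7.72% of all genes.

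The count table also holds a column marked N beside replicate 1 of each cross, and the meaning of the mark is not given in the sources used here. These columns had 3876803 reads for Col-0 X C24 and 3395442 for the other cross. Each is named after a replicate 1 and was not taken as a further replicate. The marked columns were therefore compared in RPM without a test. CHS had 974 RPM in the marked column and 11042 in the unmarked one of Col-0 X C24, and 989 against 22050 in C24 X Col-0. That is 0.0882 and 0.0449 times the unmarked level, the lowest ratios among the 10 genes. AHA10 was the 1 gene of the 10 with more RPM in the marked columns, at 1.55 times in Col-0 X C24 and 1.82 times with C24 as seed parent. The other 8 genes lay at 0.377 to 0.918 times the unmarked level. Of the 10 genes 9 were lower in the marked column in both crosses, beside 4.84% of all genes, and the median log2 ratio over all genes was 0.68 for Col-0 X C24 and 1.11 for C24 X Col-0.

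In the marked columns CHS made up 11.9% of the reads of the 10 genes in Col-0 X C24, against 8.55% in C24 X Col-0, and it ranked 27 and 46 among all loci. LDOX ranked 4 and 2, DFR 5 and 3, and BAN 7 and 4, so the late enzymes were among the most abundant transcripts there. Between the crosses, all 10 genes had lower RPM there in Col-0 X C24, beside 40.7% of all genes. CHS differed least, at 0.985 times, and TT19 most, at 0.603 times. DFR, with 1446 RPM in Col-0 X C24, against 2177 in C24 X Col-0, lay at 0.664 times.

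**Figure D3:**
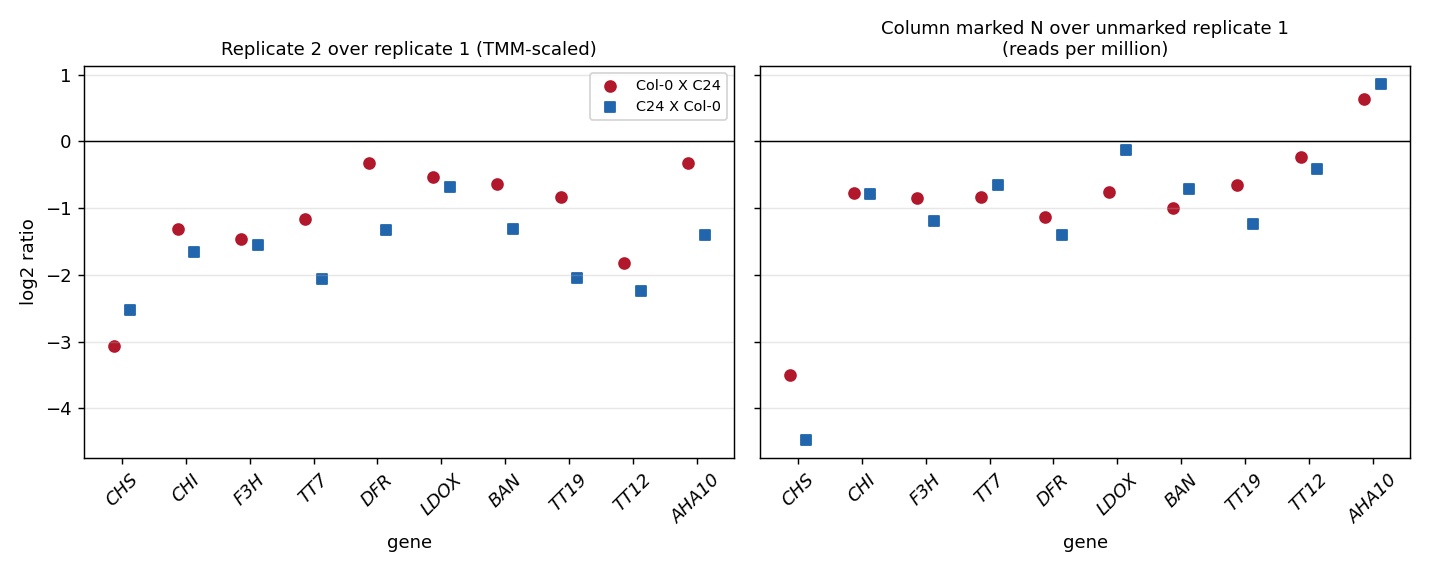
Log2 ratios for each gene in each cross, of replicate 2 over replicate 1 after TMM scaling (left) and of the column marked N over the unmarked replicate 1 in RPM (right), with circles for Col-0 X C24 and squares for C24 X Col-0. CHS has the lowest ratio in both panels, and AHA10 lies above 0 in the right panel.

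Genes of the steps that feed the pathway had negative log2 fold changes as well. Of 8 phenylpropanoid genes 7 were tested, and with the block 2 were lower in Col-0 X C24 (4.42% of all genes) and none higher (2.24%). The 2 lower genes were the CoA ligases 4CL1, at -1.32 (adjusted p = 0.0206 in edgeR), and 4CL3, at -1.75 (0.0130). 4CL3 had 280 and 183 CPM in Col-0 X C24, against 1344 and 430 CPM in C24 X Col-0. In CPM, 4 of the 7 tested genes, 4CL3 among them, had both Col-0 X C24 libraries below both of C24 X Col-0, beside 17.2% of all genes tested. C4H, which hydroxylates cinnamate and was the most abundant of the list, had 2102 and 1146 CPM in Col-0 X C24, against 8301 and 1416 CPM in C24 X Col-0. It was the 1 gene of the list called between replicate numbers, at -1.71 (adjusted p = 0.0424). The list's median with the block was -1.14.

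The branches that draw on the same intermediates had no call between the crosses. Of 10 flavonol branch genes 7 were tested, none was called between the crosses in edgeR with the block (2 at an unadjusted p under 0.05), and the median log2 fold change was 0.43. Those 2 went in opposite directions, CHIL at -1.12, the 1 tested gene of the list below 0, and FLS1 at 0.66. CHIL is a chalcone isomerase-like protein that aids CHS and had the highest level of the list. It had 2243 and 1195 CPM in Col-0 X C24, against 7574 and 1664 CPM in C24 X Col-0. CHIL was also lower in replicate 2 at -1.55 (adjusted p = 0.0418 in edgeR). Genes of the anthocyanin branch had few reads, as 7 of 12 had 0 counts in both replicate 1 libraries and 5 were tested with no call (1 at an unadjusted p under 0.05 with the block). Their summed level was 68.6 to 101 CPM, most of it from SCPL10, which had 47.5 and 59.1 CPM in Col-0 X C24, against 55.5 and 64.4 CPM in C24 X Col-0. Where a gene had 0 counts the limit is 3 counts, or 0.462 to 0.848 RPM.

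Of 8 regulators of the tannin genes, all were tested and with the block 1 was higher in Col-0 X C24 (2.24% of all genes) and none lower (4.42%). That gene was STK, a MADS-box factor of the ovule and seed coat known to repress BAN, with 735 and 662 CPM in Col-0 X C24, against 214 and 333 CPM in C24 X Col-0. Its libraries did not overlap between the crosses, beside 3283 of the 16779 genes tested with both Col-0 X C24 libraries higher. The log2 fold change of STK was 1.38 (SE 0.35, adjusted p = 0.0311 in edgeR). TT1, a zinc finger factor of the seed coat, was lower in replicate 2 at -1.50 (adjusted p = 0.00536). The median of the regulators between the crosses was -0.09 with the block. The 3 members of the activating complex were chosen for display after their values were seen. TT2 had 133 and 86.7 CPM in Col-0 X C24, against 118 and 105 CPM in C24 X Col-0, and TTG1 had 42.2 and 35.5 against 52.9 and 33.8 CPM, with overlap in both. TT8 had 149 and 141 CPM in Col-0 X C24, against 337 and 212 CPM in C24 X Col-0. The TT8 libraries did not overlap, beside 17.2% of all genes tested in that direction. With the block its log2 fold change was -0.88 (adjusted p = 0.115 in edgeR). Of the other 3 tannin genes none was called (1 at an unadjusted p under 0.05 with the block), and the highest, TT15, had 41.2 and 42.9 CPM in Col-0 X C24, against 89.7 and 49.5 CPM in C24 X Col-0.

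Between the crosses, other integument markers and embryo markers went in both directions. The tested endosperm and photosynthetic tissue markers all lay below 0 with the block. Among 6 other integument markers, the median log2 fold change with the block was 0.40. With the block 2 passed as lower in Col-0 X C24, beside 4.42% of all genes called lower. They were GL2 at -1.32 (adjusted p = 0.0197 in edgeR) and MUM2 at -1.61 (0.00825). GL2 was also lower in replicate 2 at -1.37 (adjusted p = 0.0120 in edgeR). The most abundant, GL2, had 138 and 42.9 CPM in Col-0 X C24, against 279 and 133 CPM in C24 X Col-0. The summed integument level was 238 to 340 CPM in Col-0 X C24, against 336 to 412 CPM in C24 X Col-0, a sum in which GL2 had the largest share in 3 of 4 libraries (MUM4 did in Col-0 X C24 replicate 2). Every one of the 6 was detected. The other 4 had positive values that did not pass with the block, INO at 1.56, ATS at 1.27, MUM4 at 0.43 and AP2 at 0.38. Of the 10 endosperm markers 7 were tested. All 7 lay below 0 with the block, with a median log2 fold change of -1.19, beside 0.01 over all genes. SUC5, a sucrose transporter and the most abundant of them, was the 1 called between the crosses, at -1.19 (adjusted p = 0.0473 in edgeR), beside 4.42% of all genes called lower. Between replicate numbers SUC5 was lower at -1.27 (0.0279) and FIS2 higher at 2.08 (0.00603). The summed endosperm level was 110 to 129 CPM in Col-0 X C24, against 193 to 287 CPM in C24 X Col-0. In that sum SUC5 had the largest share in replicate 1 of both crosses, and the marker FWA in replicate 2. SUC5 had 60.7 and 37.3 CPM in Col-0 X C24, against 202 and 57.5 CPM in C24 X Col-0. Of the 6 embryo markers 3 were tested, with LEC1 higher in replicate 2 at 2.87 (0.00456), and the summed level was 3.69 to 33.7 CPM in Col-0 X C24, against 5.22 to 25.5 CPM in C24 X Col-0, with DRN and WOX2 among those at 0 in at least 1 library.

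Of the marker lists, the photosynthetic tissue markers had the most calls between the crosses. With the block 5 of 6 were called lower in Col-0 X C24, beside 4.42% of all genes. They were RBCS1A at -1.27, RBCS3B at -2.04, CAB1 at -2.74, RCA at -1.66 and LHCA1 at -1.49 (adjusted p 0.00578 to 0.0448 in edgeR). The summed level of the 6 was 1093 and 474 CPM in Col-0 X C24, against 2605 and 1695 CPM in C24 X Col-0. The highest, RBCS1A, had 488 and 287 CPM in Col-0 X C24, against 975 and 834 CPM in C24 X Col-0. CAB1 at -3.32 (adjusted p = 0.00674) and LHCA1 at -1.49 (0.0124) were also lower in replicate 2. The part of these other tissues in the values of the 10 genes was not tested.

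**Figure D4:**
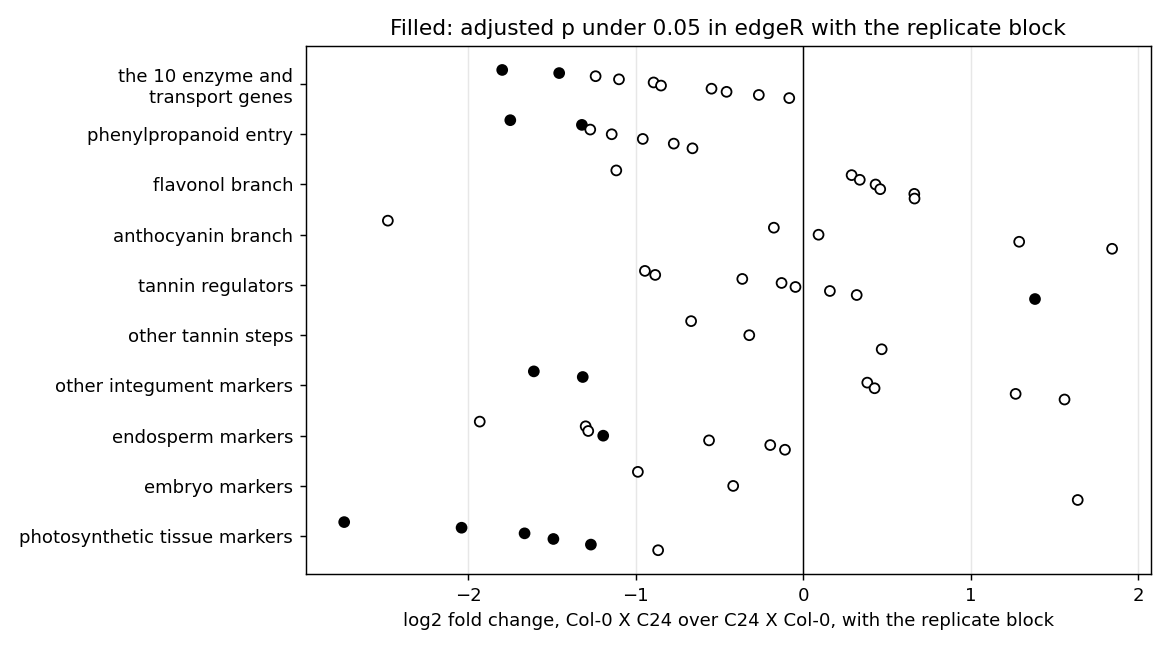
Log2 fold change between the crosses, positive where Col-0 X C24 is higher, with the replicate block for every tested gene of each list, where filled points have an adjusted p under 0.05 in edgeR. The 10 enzyme and transport genes and the 7 tested phenylpropanoid genes all lie below 0 with 2 calls each, and the photosynthetic markers lie below 0 with 5 calls of 6. The 7 tested endosperm markers also all lie below 0, with 1 call.

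Over the 4 libraries, CHI had the profile nearest to the mean of the 10 genes, with a root mean square distance of 0.060 in log2 CPM after centring each gene, and CHS the farthest, at 0.873. The 5 genes outside the lists with the nearest profiles, of 11226 with a mean of at least 10 CPM, were AT4G28060 (0.033), PBA1 (AT4G31300, 0.037), AT3G43520 (0.037), AT5G14150 (0.039) and SAM1 (AT1G02500, 0.040). PBA1 had 217 and 104 CPM in Col-0 X C24, against 497 and 149 CPM in C24 X Col-0. With 4 libraries and so many candidates, such likeness describes these libraries and is no measure of shared control.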

How the data were processed

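mRNA-seq of seeds of both crosses was analysed, and 5 amplicon samples were not analysed here. The authors deposited raw read counts per locus, after trimming, alignment with BWA to TAIR10 cDNA and merging of gene models per locus. Of 6 columns, 4 match the libraries and 2 are marked N, and 0 columns were left unused. Loci with at least 10 counts in at least 2 libraries were tested with edgeR 4.0.16 in R 4.3.3 (quasi-likelihood, TMM, Benjamini-Hochberg over all genes, adjusted p under 0.05, two-sided). DESeq2 1.42.0 was an alternative. The fits were tested on simulated data. Each SE is the log2 fold change divided by the root of F. The replicate number marks the nuclease step, placed on replicate 2 of both crosses, so it pairs libraries across the crosses. The change between replicates correlated between crosses (r = 0.553 across 16779 genes, which are not independent), and the block lowered the common dispersion to 0.0733, against 0.209 without it. Gene positions are from TAIR10.1, which matched 97.7% of loci. Named genes were all 10, the called genes and the most abundant gene of each list, and the 5 nearest profiles. Members and lists were chosen with earlier results of these data known. Further alternatives were other scalings, no filter and leaving out libraries.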

Additional observations from a re-analysis of the deposited data

Results flagged for a closer look

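After TMM scaling, TT7 and AHA10 went in opposite directions between the crosses in the 2 replicate numbers. The log2 ratio, positive where Col-0 X C24 is higher, was -0.54 for TT7 in replicate 1 and 0.37 in replicate 2. For AHA10 it was -0.81 in replicate 1 and 0.28 in replicate 2. In reads per 1000000 (RPM) TT7 had 1527 in Col-0 X C24, against 1527 in C24 X Col-0, in replicate 1, and 861 against 590 in replicate 2, so its opposite directions depend on the scaling. AHA10 had 279 against 337 RPM in replicate 1 and 281 against 205 in replicate 2. Each ratio rests on 1 library per cross, and the difference between the replicate numbers was not tested.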

How the results depend on the processing

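Without the block, 0 genes were called between the crosses, and 1118 with the replicate block, 4 with library totals, 585 with no filter, 302 with DESeq2 and 0 to 46 with a library left out (46 without replicate 2 of Col-0 X C24). The block combined with RLE factors or library totals, added after seeing the data, gave 1522 and 194 calls, and RLE with the block also called TT12. The fitted fold change kept its direction for DFR, F3H, LDOX and TT19 under all alternatives run. In RPM within replicate 1, however, LDOX was slightly higher in Col-0 X C24, at 2462 against 2449 in C24 X Col-0. TT7 and AHA10 turned to 0.17 and 0.038 with library totals and to 0.26 and 0.078 with the block and library totals. With libraries left out, log2 fold changes ranged from -3.82 to 0.15 for CHS, -1.73 to 0.12 for CHI, -1.01 to 1.06 for TT7, -1.17 to 0.14 for BAN, -2.41 to 0.29 for TT12 and -0.96 to 0.45 for AHA10. The median over the 10 genes ranged from -1.55 to 0.13 and the summed level from 9264 to 23670 CPM in Col-0 X C24 and from 15582 to 58227 CPM in C24 X Col-0. Between replicate numbers, 1663 genes were called, but 0 without the cross term and 245 with library totals. Causes were not tested.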
